A study of Mus musculus with 18 samples.

Results

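Bone morphogenetic protein (BMP) signalling was followed through 10 genes in lungs of mouse embryos whose epithelium lacked Rptor, Tfam or Cox10. They comprise 4 ligands (Bmp4, Bmp2, Bmp5 and Bmp7), 2 secreted antagonists (Grem1 and Nog), 3 response genes (Id1, Id2 and Id3) and 1 inhibitor of the response (Smad6). They were chosen by name for these roles, and each was found by its symbol among the 23420 genes of the RNA-Seq tables. Whole lungs were collected at 14.5 days post coitus (dpc), a stage at which the airways are branching. Each line consisted of 3 deficient and 3 littermate control samples, 18 in all, and had a table of its own. The genotypes were Rptorf/f; ShhCre/+ against Rptorf/+; ShhCre/+ for the loss of Raptor, a component of the growth regulator mTORC1. They were Tfamf/f; ShhCre/+ against Tfamf/+; ShhCre/+ for a factor that maintains mitochondrial DNA, and Cox10f/f; ShhCre/+ against Cox10f/+; ShhCre/+ for an enzyme of heme synthesis on which cytochrome c oxidase depends. Controls therefore also carried 1 floxed allele and the Cre, which is expressed from the Shh locus and recombines in the epithelium but not in the mesenchyme, vessels or mesothelium of the same lungs. The labels do not state whether a sample was the lung of a single embryo, and the p-values measure the spread between these samples only. A sample is called a lung below, and Rptor, Tfam and Cox10 lungs are the 6 samples of a line, deficient and control.

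BMPs are secreted dimers of the TGF-beta family that bind paired type I and type II serine/threonine kinase receptors. The receptors phosphorylate SMAD1, SMAD5 and SMAD9, which enter the nucleus with SMAD4 and switch on genes such as Id1, Id2, Id3 and Smad6. Noggin and Gremlin bind the ligands outside the cell and keep them from the receptors. In the branching lung Bmp4 is known to be made at the distal epithelial tips and in the mesenchyme, where BMP signalling restrains the outgrowth of buds driven by FGF10.

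All 10 genes were present in control lungs, and their order was nearly the same in the 3 lines. Values were reads scaled by a size factor (normalised reads), and for a comparison between genes they were divided by the exonic length of the gene. Id3 stood highest, with 2535 ± 90.9 normalised reads per kb of exon in the controls of the Rptor line (SD, n = 3). Id2 followed with 1731 ± 64.4 and Id1 with 1456 ± 72.3. Bmp4 was the highest ligand at 865 ± 49.3, followed by Bmp5 at 713 ± 81.7. Smad6 lay at 307 ± 21.7, Bmp7 at 127 ± 6.52 and Nog at 79.0 ± 2.6, while Bmp2 (22.3 ± 2.02) and Grem1 (2.88 ± 0.24) were the lowest. In the Rptor and Cox10 lines the 3 control values of each gene lay above those of the next gene in this order. Among Tfam lungs Bmp4 (1213 ± 71.8) stood before Id1 (1017 ± 138) with overlapping values, and Bmp5 overlapped Smad6. Grem1 per kb was 6.09 ± 0.88 in Tfam controls and 14.9 ± 1.63 in Cox10 controls, but the tables were normalised separately and levels were not tested between lines.

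**Figure D1:**
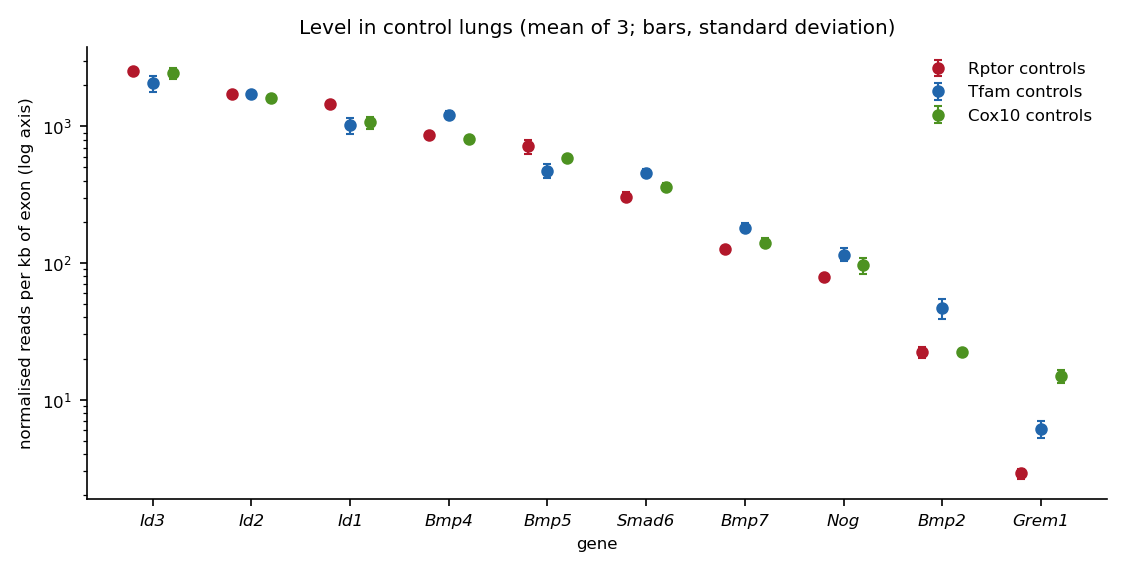
Level of the 10 genes in control lungs of the 3 lines, as normalised reads per kb of exon on a log axis, with genes in the order of the Rptor line. Points are means of 3 samples and bars are standard deviations. Id3 lies highest at 2535 in the Rptor line and Grem1 lowest at 2.88.

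The genes lie at separate places in the genome (GRCm38). Bmp4 is at chr14:46383520-46390669 on the minus strand, Bmp2 at chr2:133552159-133562885 on the plus strand, Bmp5 at chr9:75775364-75900310 on the plus strand and Bmp7 at chr2:172868012-172940321 on the minus strand. Grem1 is at chr2:113746164-113758646 and Nog, a gene of 1 exon, at chr11:89300638-89302332, both on the minus strand. Id1 is at chr2:152736251-152737410 on the plus strand, Id2 at chr12:25093799-25097140 on the minus strand, Id3 at chr4:136143497-136145755 on the plus strand and Smad6 at chr9:63953076-64022059 on the minus strand. Exons of Bmp4 and Bmp5 overlap those of the antisense genes Gm15217 and Gm26903. Whether reads were counted by strand is not given in the sources used here, so reads of these pairs may not be told apart.

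Promoter sequences from RefSeq (GRCm38.p6) were matched for 6 of the 10 genes, Bmp4, Bmp5, Grem1, Id2, Id3 and Smad6. The 250 bases before the annotated start were searched on both strands for GGCGCC, a palindromic element through which SMAD1 and SMAD5 are known to bind BMP target genes, and for GTCT or its reverse complement AGAC, the short SMAD-binding element. These motifs do not overlap each other. GGCGCC was present in 2 of the 6 promoters, Id2 and Grem1, and in 9.59% of all 32851 promoters. GTCT or AGAC was present in 6 of 6 and in 82.9% of all promoters, with a median of 2 matches each. A match of these letters is a description and not a site. The sequences of Bmp4, Id2 and Smad6 are shown as a ligand, a response gene and an inhibitor that were higher in deficient lungs, 5′ to 3′ on the strand of the gene, with the motifs in capitals. For Id2 and Id3 the annotated start used lies inside the gene as placed above, so that the bases searched are within the gene. For Id2 only the 89 bases that no annotated exon of Id2 covers are shown. GGCGCC begins 231 bases before this internal start of Id2. AGAC begins 222 bases before the start of Bmp4 and GTCT begins 4 bases before that of Smad6.
Bmp4, chr14:46390670-46390919, minus strand: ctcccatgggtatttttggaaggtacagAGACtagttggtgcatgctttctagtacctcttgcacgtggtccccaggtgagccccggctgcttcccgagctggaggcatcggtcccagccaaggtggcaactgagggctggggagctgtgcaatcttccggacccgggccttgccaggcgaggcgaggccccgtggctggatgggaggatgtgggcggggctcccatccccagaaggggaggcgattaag
Id2, chr12:25096254-25096342, minus strand: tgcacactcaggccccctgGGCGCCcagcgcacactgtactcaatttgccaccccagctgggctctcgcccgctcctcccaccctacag
Smad6, chr9:64022060-64022309, minus strand: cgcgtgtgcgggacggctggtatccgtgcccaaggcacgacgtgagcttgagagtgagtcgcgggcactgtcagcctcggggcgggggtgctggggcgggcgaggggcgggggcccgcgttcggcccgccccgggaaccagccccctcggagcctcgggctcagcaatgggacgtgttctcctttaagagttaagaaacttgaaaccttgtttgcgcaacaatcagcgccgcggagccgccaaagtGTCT

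The libraries were of like depth, with 27675601 to 29704748 reads recovered from the deposited values and 17671 to 17910 genes above 0. Markers of epithelium, mesenchyme, endothelium, smooth muscle, mesothelium and immune cells were present in every group, as the labelled tissue would hold. Rptor, Tfam and Cox10 overlapped between deficient and control lungs of their own line (log2 fold changes of -0.066, -0.12 and -0.0055), and with 1 floxed allele in controls and deletion limited to the epithelium these whole-lung values do not check the labels. Of 12 epithelial markers 12 fell in Rptor lungs, 5 in the Tfam line (Cdh1, Cldn6, Esrp1, Esrp2 and Grhl2) and 2 in Cox10 lungs (Esrp2 and Grhl2). Of the 12 markers 8 in the Tfam line and 10 in Cox10 lungs had an unadjusted limma p below 0.05. Their summed level was 32585 to 33817 in Rptor controls against 12994 to 17057 in deficient lungs, 30672 to 32051 against 24616 to 27420 in the Tfam line, and 24694 to 25134 against 16809 to 22338 in Cox10 lungs. Of 4 markers of the distal tips, where Bmp4 is known to be made, Etv5 and Sftpc fell and Etv4 rose in Rptor lungs (log2 fold changes of -1.07, -1.86 and 0.35), Etv5 fell and Etv4 rose in the Tfam line (-0.55 and 0.71), and 0 passed in Cox10 lungs, where 2 had an unadjusted limma p below 0.05. Their summed level was 24792 to 30476 in Rptor controls against 11007 to 14014 in deficient lungs, 20739 to 22950 against 14816 to 17296 for Tfam, and 15871 to 16236 against 10014 to 15876 for Cox10. Endothelial markers passed the test as higher in 9 of 12 cases in the Rptor line and in 0 of 12 in the other lines, where 3 (Tfam) and 0 (Cox10) had an unadjusted p below 0.05 in limma. Of the other lists in the Rptor line 6 of 6 immune markers, 6 of 9 mesenchymal and 4 of 5 mesothelial markers rose, with median log2 fold changes of 0.79, 0.69 and 0.93, and in the other lines 0 of these passed. An unadjusted limma p below 0.05 was reached there by 5 immune, 3 mesenchymal and 2 mesothelial markers for Tfam and by 1, 4 and 1 for Cox10, and the summed immune level of Tfam lungs was 3283 to 3905 in controls against 4145 to 4415 in deficient lungs. The summed mesenchymal level was 195883 to 226433 in Rptor controls and 387369 to 419894 in deficient lungs, and the immune level 2724 to 2793 and 4558 to 5492. Highest in the mesenchymal sum were Col1a1, Col1a2 and Col3a1, with control means of 49722, 48235.5 and 76720.5 and deficient means of 109355, 101629 and 147576. Pdgfra, Pdgfrb and Tcf21 rose as well (log2 fold changes of 0.69, 0.36 and 0.77), while Tbx4, Tbx5 and Foxf1 did not pass (-0.037, 0.025 and 0.12). Smooth muscle markers fell in 6 of 8 cases in Rptor lungs and in 6 of 8 in the Tfam line, with medians of -1.15 and -0.56. In Cox10 lungs 1 of 8 fell, 7 of 8 had an unadjusted limma p below 0.05, the median was -0.92 and the summed level was 15237 to 17750 in controls against 10713 to 14415 in deficient lungs. Acta2, the most abundant of them, rose in Rptor lungs (log2 fold change 0.47, adjusted p = 0.0410 by limma), and the summed level there overlapped at 18642 to 25011 in controls and 18845 to 28123 in deficient lungs, while in the Tfam line it was 24880 to 28603 against 19370 to 22667. Heart muscle markers varied widely within groups, with sums of 423 to 4398 in Cox10 controls, 452 to 4357 in Cox10-deficient lungs and 5007, 5784 and 14944 in Tfam-deficient lungs, and of these Nppa alone passed, as higher in the Tfam line (2.29, adjusted p = 0.000273 by limma). Of 4 cartilage markers tested Col2a1 and Col9a1 fell and Col9a2 rose in the Rptor line (log2 fold changes of -1.43, -0.35 and 1.39). Col2a1 fell and Col9a2 rose in the Tfam line (-0.72 and 0.48), and 0 passed in Cox10 lungs. The part of these shifts in the BMP results was not tested. Among Cox10 lungs deficient replicate 3 stood apart, with a summed endothelial level of 48181 against 33676 and 30786 in the other deficient lungs and 29992 to 31205.5 in controls. Leaving out 1 sample moved the count of all genes that passed from 71 to between 3 and 251 in the Cox10 line, where it was 3, 5 and 3 without control replicate 1, 2 or 3, 32 without deficient replicate 2 and 251 without deficient replicate 3. In the Tfam line it moved from 702 to 363 without control replicate 1, 1123 without control replicate 3, and 447, 429 and 365 without deficient replicate 1, 2 or 3.

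To ask whether BMP genes responded to each deletion, each set of deficient lungs was tested against its controls by limma on log2(value + 1), with Benjamini-Hochberg adjustment over all genes tested in the line. Among Rptor lungs 6 of the 10 genes rose (Bmp4, Bmp2, Nog, Id1, Id2 and Smad6) and 1 fell (Bmp7), where 16.6% of all 14940 genes tested rose and 18.2% fell. These 7 calls became 3 without control replicate 1 and 4 without control replicate 3, deficient replicate 1 or deficient replicate 3. Of all 14940 genes 3776, 3777, 5336 and 4277 passed in these fits in the same order, against 5202 with all samples. Within the Tfam line 3 of the 10 rose (Bmp4, Id1 and Id2) and none fell, where 2.03% of 15053 genes rose and 2.63% fell. Within the Cox10 line 0 of the 10 passed, where 0.141% of 14937 genes rose and 0.335% fell. In Cox10 lungs 5 of the 10 had an unadjusted p below 0.05 by limma, as did 13% of all genes. There 0 passed in edgeR, where 0.455% of all genes did, and 3 (Bmp4, Id1 and Id2) passed in DESeq2, where 2.26% of the genes given an adjusted p did. The 10 genes had a median log2 fold change of 0.34 for Rptor, 0.28 for Tfam and 0.23 for Cox10, beside medians of 0.0083, 0.00098 and 0.0014 over all genes tested. The 3 deficient and 3 control values did not overlap for 9 of the 10 genes in the Rptor line, where this held for 50.3% of all genes. They did not overlap for 5 of the 10 in Tfam lungs and 5 of the 10 in the Cox10 line, against 22.8% and 21.3% of all genes. In these whole lungs fewer cells of a type and less RNA per cell cannot be told apart, and the epithelial signal was lower in the deficient lungs of each line, the part of which in these results was not tested.

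**Figure D2:**
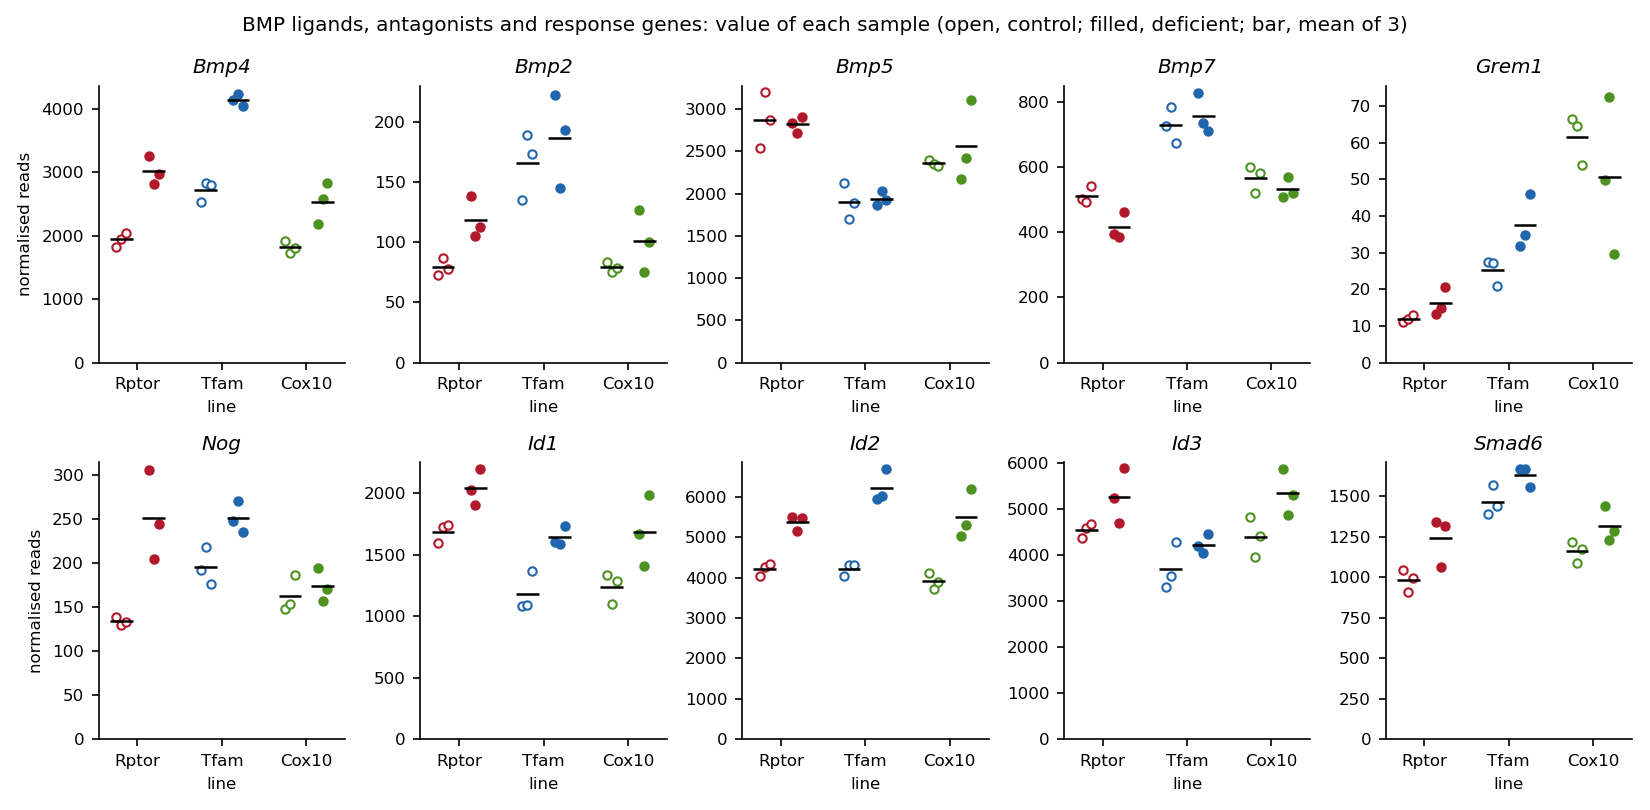
Normalised reads of the 10 genes in each of the 18 samples, with a linear axis from 0 for each gene. Open circles are controls, filled circles are deficient lungs and bars are means of 3. For Bmp4, Id1 and Id2 every deficient lung lies above every control of its line in all 3 lines.

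Bmp4, the ligand best known for its part in lung branching, was higher in deficient lungs of all 3 lines. Within the Rptor line it had 1829, 1954 and 2050.0 normalised reads in controls and 3265, 2823 and 2968 in deficient lungs. The lowest deficient lung lay well above the highest control. The log2 fold change was 0.63 (SE 0.072, adjusted p = 0.000493 by limma), a ratio of means of 1.55. In Tfam lungs the controls had 2541, 2838 and 2800 normalised reads and the deficient lungs 4152, 4240 and 4056. Both groups were tight and did not overlap, with a log2 fold change of 0.61 (SE 0.060, adjusted p = 0.000207 by limma) and a ratio of 1.52. In Cox10 lungs Bmp4 had 1915, 1729 and 1810 normalised reads in controls and 2186, 2587 and 2841 in deficient lungs. The groups again did not overlap, and deficient replicate 3, the sample that stood apart, was the highest. The log2 fold change of 0.47 (SE 0.094) did not pass in that line (adjusted p = 0.0960 by limma), and it was 0.39 without deficient replicate 3 (adjusted p = 0.0565 by limma). Without deficient replicate 1 it was 0.58 and passed (adjusted p = 0.0293 by limma), as in none of the other 5 fits that left out a sample (up to 0.471). With all 18 samples in 1 fit the same value passed (adjusted p = 0.00346 by limma), as it did in DESeq2 (adjusted p = 0.000550).

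Bmp2, a close relative of Bmp4 that binds the same receptors, was much less abundant per length. Rptor controls had 72.8, 86.9 and 77.6 normalised reads and deficient lungs 139, 105 and 113. All deficient lungs lay above the controls and Bmp2 rose by a log2 fold change of 0.57 (SE 0.16, adjusted p = 0.0265 by limma). The call held in 2 of the 6 fits that each left out 1 sample, those without control replicate 2 or deficient replicate 2 (adjusted p = 0.0349 to 0.0810 by limma over the 6). In the Tfam line Bmp2 had 135, 189 and 173 normalised reads in controls and 222, 145 and 194 in deficient lungs, which overlapped (log2 fold change 0.16, SE 0.17, adjusted p = 0.687 by limma). In the Cox10 line 83.4, 75.6 and 79.0 in controls stood against 127, 75.4 and 99.8 in deficient lungs. These values overlapped as well, with a log2 fold change of 0.31 (SE 0.20, adjusted p = 0.532 by limma).

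Bmp7 was the only one of the 10 genes that fell. It is a ligand that is known to be made in the lung epithelium. In Rptor lungs controls had 502, 492 and 541 normalised reads and deficient lungs 396, 386 and 463. All deficient lungs lay below the controls, with a log2 fold change of -0.30 (SE 0.099, adjusted p = 0.0425 by limma). The call was close to the threshold, since it was lost with library totals as the scale (adjusted p = 0.0502 by limma) and without a filter on low values (adjusted p = 0.0524 by limma), and of the 6 fits that left out a sample it held in the 1 without deficient replicate 3 (adjusted p = 0.0235 to 0.140 by limma). All 12 epithelial markers fell in the same lungs, with a median log2 fold change of -1.01, and their part in the change of Bmp7 was not tested. Among Tfam lungs Bmp7 ranged from 675 to 785 in controls and from 710 to 827 in deficient lungs (log2 fold change 0.056, SE 0.084). Among Cox10 lungs it ranged from 519 to 601 and from 509 to 570.2 (log2 fold change -0.089, SE 0.085). Neither passed (adjusted p = 0.793 and 0.659 by limma).

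Bmp5, a ligand known to be made in the lung mesenchyme, overlapped between groups in each line. It had 2539, 3197 and 2868 normalised reads in Rptor controls and 2833, 2717 and 2902 in deficient lungs. Within the Tfam line it ranged from 1697 to 2128 in controls and from 1865 to 2027 in deficient lungs, and in Cox10 lungs from 2326 to 2396 and from 2172 to 3102. The log2 fold changes were -0.020 (SE 0.083), 0.032 (SE 0.081) and 0.11 (SE 0.12), with adjusted p = 0.873, 0.881 and 0.705 by limma. The highest Cox10-deficient value belonged to replicate 3, and without it the change was -0.040.

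Nog, which encodes the antagonist Noggin, showed the largest rise among the 10 genes in the Rptor line. Controls had 139, 130 and 133 normalised reads, and deficient lungs had 306, 205 and 245. Controls lay within a narrow range and all deficient lungs were far above it. The log2 fold change was 0.89 (SE 0.16, adjusted p = 0.00341 by limma), a ratio of 1.88, and it passed in all 6 fits that left out a sample. In Tfam lungs the values were 192, 218 and 176 in controls and 248, 271 and 236 in deficient lungs. The groups did not overlap, but the log2 fold change of 0.37 (SE 0.11) did not pass (adjusted p = 0.109 by limma). Within the Cox10 line 148, 153 and 187 in controls overlapped 195, 157 and 171 in deficient lungs, with 0.10 as the log2 fold change (SE 0.14, adjusted p = 0.775 by limma).

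Grem1, which encodes the antagonist Gremlin, was the lowest of the 10 genes, and in Rptor lungs it lay close to the filter of 10 normalised reads. It had 10.97, 11.99 and 12.9 normalised reads in Rptor controls and 13.3, 14.9 and 20.8 in deficient lungs. In the Tfam line 27.4, 27.3 and 21.0 in controls stood against 31.8, 34.7 and 45.9. In both lines all deficient lungs lay above the controls. The log2 fold changes were 0.39 (SE 0.29, adjusted p = 0.326 by limma) and 0.55 (SE 0.23, adjusted p = 0.253 by limma), so that neither passed. In Cox10 lungs 66.5, 64.6 and 54.0 in controls overlapped 49.9, 72.4 and 29.7 in deficient lungs (log2 fold change -0.36, SE 0.31, adjusted p = 0.626 by limma). The low value of 29.7 belonged to deficient replicate 3, and without it the log2 fold change was -0.030.

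The Id genes encode helix-loop-helix proteins that lack a DNA-binding region and hold their partners off DNA, and they are among the most direct readouts of BMP signalling. Id4, which is not among the 10, passed in no line. Its log2 fold changes were -0.11, 0.0096 and 0.10 for Rptor, Tfam and Cox10 (adjusted p = 0.417, 0.974 and 0.617 by limma). Id2 had 4045, 4263 and 4350 normalised reads in Rptor controls and 5502, 5153 and 5485 in deficient lungs. It had 4040, 4317 and 4305 in Tfam controls and 5948, 6037 and 6709 in deficient lungs. It had 4128, 3711 and 3901 in Cox10 controls and 5028, 5318 and 6207 in deficient lungs. In each line every deficient lung lay above every control. Id2 rose by log2 fold changes of 0.35 (SE 0.054, adjusted p = 0.00184 by limma) and 0.56 (SE 0.063, adjusted p = 0.000495 by limma) in the Rptor and Tfam lines, and it passed in all 6 fits without a sample in both. In the Cox10 line the log2 fold change of 0.49 (SE 0.082) lay just above the threshold (adjusted p = 0.0571 by limma). Without deficient replicate 3 it was 0.40 and passed (adjusted p = 0.0135 by limma), where 1.68% of all genes did. It also passed with all 18 samples in 1 fit (adjusted p = 0.000661 by limma) and in DESeq2 (adjusted p = 1.55e-05), but in none of the other 5 fits that left out a sample.

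Id1 showed the same order of the groups as Id2. The controls had 1593, 1728 and 1746 normalised reads in Rptor lungs, 1082, 1092 and 1364 in the Tfam line and 1336, 1099 and 1288 in Cox10 lungs. The deficient lungs had 2028, 1908 and 2195 in the Rptor line, 1605, 1587 and 1736 in Tfam lungs and 1667, 1406 and 1988 in the Cox10 line. The groups did not overlap in any of the 3 lines. Id1 rose by a log2 fold change of 0.27 (SE 0.070, adjusted p = 0.0174 by limma) in Rptor lungs and 0.48 (SE 0.090, adjusted p = 0.0108 by limma) in the Tfam line. Each call held in 4 of the 6 fits without a sample and was lost without control replicate 1 or deficient replicate 3 of its line (adjusted p of at most 0.0674 and 0.0607 by limma). In Rptor lungs it was also lost with all 18 samples in 1 fit (adjusted p = 0.0583 by limma). Among Cox10 lungs the log2 fold change was 0.43 (SE 0.13, adjusted p = 0.254 by limma), and 0.31 without deficient replicate 3 (adjusted p = 0.209 by limma).

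Id3 was the most abundant of the 10 genes per length. Controls had 4358, 4590 and 4672 normalised reads in the Rptor line and deficient lungs 5227, 4691 and 5875. These values did not overlap, though the lowest deficient lung was only just above the highest control. The log2 fold change of 0.21 (SE 0.081) did not pass (adjusted p = 0.0762 by limma), but it passed with the replicate number as a block (adjusted p = 0.0426 by limma) and in DESeq2 (adjusted p = 0.0433). Of the fits without a sample it passed in the 1 without deficient replicate 2 (adjusted p = 0.0231 by limma). Among Tfam lungs Id3 ranged from 3308 to 4269 in controls and from 4031 to 4441 in deficient lungs (log2 fold change 0.20, SE 0.087, adjusted p = 0.278 by limma), and it passed only without control replicate 3 (adjusted p = 0.0169 by limma). Within the Cox10 line it ranged from 3948 to 4812 in controls and from 4870.1 to 5866 in deficient lungs, with no overlap (log2 fold change 0.28, SE 0.090, adjusted p = 0.285 by limma).

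Smad6 encodes an inhibitory SMAD that BMP signalling induces and that dampens it in turn. It had 1046, 908 and 994 normalised reads in Rptor controls and 1343, 1063 and 1318 in deficient lungs. The groups did not overlap and Smad6 rose by a log2 fold change of 0.33 (SE 0.10, adjusted p = 0.0347 by limma), a call that held in 1 of the 6 fits without a sample, that without deficient replicate 2 (adjusted p = 0.00953 to 0.121 by limma). Within the Tfam line it ranged from 1388 to 1568 in controls and from 1559 to 1669 in deficient lungs, which overlapped. In Cox10 lungs it ranged from 1088 to 1219 and from 1229 to 1436, which did not. The log2 fold changes of 0.16 (SE 0.066) and 0.18 (SE 0.075) did not pass (adjusted p = 0.245 and 0.370 by limma). Without Cox10 deficient replicate 3 the changes in that line were 0.30 for Bmp2, -0.072 for Bmp7, 0.11 for Nog, 0.29 for Id3 and 0.20 for Smad6, and none passed (adjusted p = 0.225 to 0.792 by limma).

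**Figure D3:**
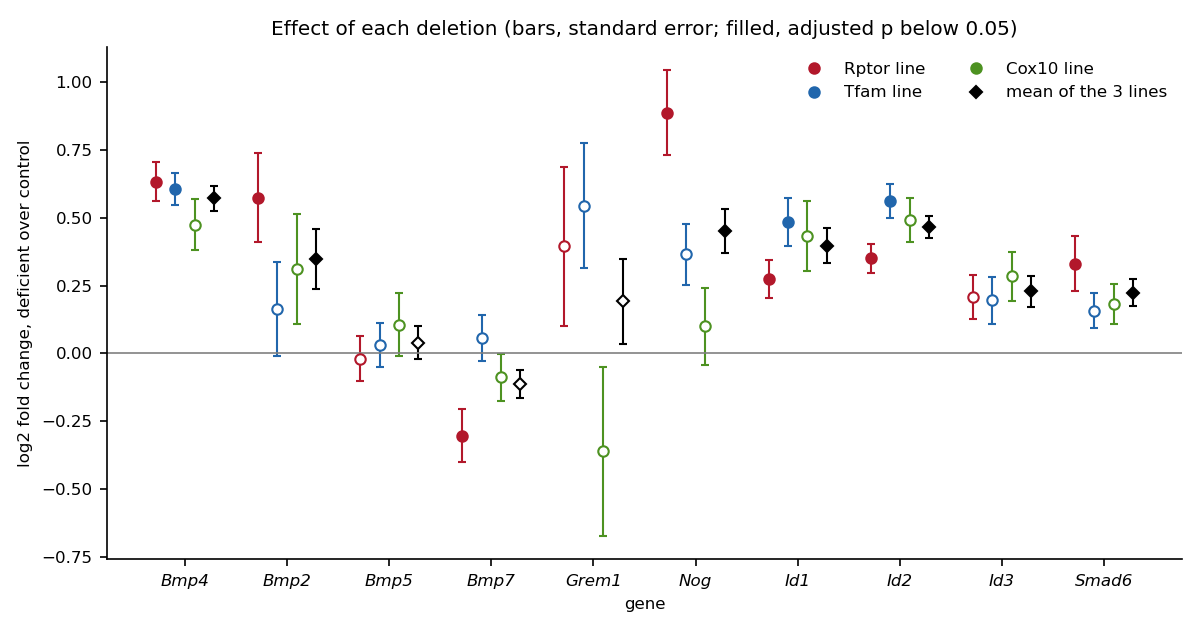
Log2 fold change of deficient over control lungs for the 10 genes in each line and as the mean of the 3 lines. Bars are standard errors and filled symbols have a limma adjusted p below 0.05. Bmp4 lies at 0.47 to 0.63, Id1 at 0.27 to 0.48 and Id2 at 0.35 to 0.56 in the 3 lines, while Nog ranges from 0.10 in Cox10 lungs to 0.89 in the Rptor line.

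The effects of the 3 deletions were then compared with each other, in 1 limma fit of all 18 samples over the 14550 genes tested in every line. For the difference between the Rptor and Cox10 effects 1 of the 10 genes passed, near the share of 7.48% of all genes. This was Nog, whose log2 fold change was 0.89 in Rptor lungs and 0.10 in the Cox10 line, a difference of 0.79 (SE 0.20, adjusted p = 0.0214 by limma). It did not pass in 4 of the fits that left out a sample, namely without Rptor control replicate 2, Rptor deficient replicate 1, Cox10 control replicate 3 or Cox10 deficient replicate 2 (adjusted p = 0.0507, 0.0506, 0.0680 and 0.0565 by limma). None of the 10 genes passed for Rptor against Tfam, where 11.2% of all genes did, and 3 of them (Bmp7, Nog and Id2) had an unadjusted limma p below 0.05, as did 28% of all genes. For Bmp7 the difference was -0.36 (SE 0.13, adjusted p = 0.0772 by limma). None passed for Tfam against Cox10, where 0.055% of all genes did, and 1 (Grem1) had an unadjusted limma p below 0.05, as did 4.56% of all genes. The Bmp4 effects differed by 0.026 between the Rptor and Tfam lines, with a 95% interval of 0.24 to either side, and by 0.16 between the Rptor and Cox10 lines with the same interval. The Id2 effects differed by -0.21 and -0.14 in the same comparisons, with an interval of 0.21 to either side. These intervals leave room for differences between lines that are a sizeable part of the effects themselves.

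The mean effect of the 3 deletions was taken from the same fit. Of the 10 genes 7 were higher in deficient lungs and 0 lower, where 18% of all genes were higher and 19.1% lower. The largest was Bmp4 at 0.57 (SE 0.047, adjusted p = 1.05e-07 by limma). Id2 at 0.47 (SE 0.041, adjusted p = 1.92e-07 by limma), Nog at 0.45 (SE 0.081, adjusted p = 0.000394 by limma) and Id1 at 0.40 (SE 0.064, adjusted p = 0.000155 by limma) came next. Bmp2 (0.35), Id3 (0.23) and Smad6 (0.22) also passed, with adjusted p = 0.0202, 0.00449 and 0.00238 by limma. Thus Id3, which passed in no line in that line's own limma fit with all samples and without the block, passed in the mean of the 3. Bmp5 (0.039), Bmp7 (-0.11) and Grem1 (0.19) did not pass, with adjusted p = 0.650, 0.102 and 0.358 by limma. Bmp7 passed as lower without Rptor deficient replicate 3 (-0.14, adjusted p = 0.0410 by limma) and in none of the other 17 fits that left out a sample. Without Cox10 deficient replicate 3 again 7 genes passed, and Bmp4 was 0.54, Id2 was 0.44 and Id1 was 0.36.

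Because the deleted cells are epithelial and several of the 10 genes are made in more than one tissue, each gene was also set against signals of epithelium and endothelium in the same sample. The reference for epithelium was the mean log2 level of Epcam, Cdh1 and Nkx2-1, which was lower in deficient lungs by 1.17, 0.27 and 0.40 on the log2 scale in the Rptor, Tfam and Cox10 lines, so that a gene with no change of its own lay above its controls on this scale. The deficient lungs lay above the controls without overlap for 10 of the 10 genes in Rptor lungs, 8 in the Tfam line and 8 in Cox10 lungs, where this held for 94%, 56.5% and 61.8% of all genes tested. In Rptor lungs the count was therefore near that of all genes. The median difference over the 10 genes was 1.51, 0.55 and 0.63 on the log2 scale, beside medians of 1.18, 0.27 and 0.40 over all genes. Without Cox10 deficient replicate 3 the 10 genes in that line lay above by 0.43 to 0.90, 10 of them without overlap, as did 86.8% of all genes. Relative to this signal Bmp4 moved from -1.42 ± 0.10 to 0.38 ± 0.31 in Rptor lungs, from -0.78 ± 0.093 to 0.10 ± 0.12 in Tfam lungs and from -1.10 ± 0.071 to -0.23 ± 0.056 in the Cox10 line (SD, n = 3 each). Bmp7, which fell in absolute terms in Rptor lungs, was higher by 0.87 relative to these genes, less than the median of all genes. In each of the comparisons of all 6 samples without overlap the exact permutation test gave p = 0.1 (two-sided), the smallest that 3 samples against 3 allow.

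The reference for endothelium was the mean log2 level of Pecam1, Cdh5 and Tie1, which was higher in deficient lungs by 0.42, 0.097 and 0.29 in the same order of lines. Each line was described on its own, and differences between lines on this scale were not tested. Id1, Id3 and Smad6 are known to be high in endothelium. In the Rptor line, where 9 of 12 endothelial markers rose, Id1 was lower by 0.14 and Id3 by 0.21 relative to these genes without overlap, while Id2 (-0.066) and Smad6 (-0.085) overlapped. With all 12 endothelial markers as the reference the values were -0.034 for Id1, -0.10 for Id3, 0.043 for Id2 and -0.61 for Bmp7. Bmp5 (-0.44) and Bmp7 (-0.72) were also lower, Bmp4 (0.22) overlapped and Nog (0.47) was the only one of the 10 above its controls without overlap. Thus 1 of the 10 lay above and 4 below, where 4.79% and 63.9% of all genes did. In Tfam lungs Bmp4 (0.51), Grem1 (0.45), Nog (0.27), Id1 (0.39) and Id2 (0.46) were higher without overlap, while Id3 (0.10) and Smad6 (0.060) overlapped. These were 5 of the 10, where 4.41% of all genes lay above in that line. In the Cox10 line 0 of the 10 genes separated the groups, where 0.87% of all genes lay above and 22% below. There Bmp4 was higher by 0.18 and Id2 by 0.20, and without deficient replicate 3, the sample with the highest endothelial level, by 0.32 and 0.33. Without it 5 of the 10 lay above without overlap, where 5.98% of all genes did, and the 10 values ranged from -0.14 to 0.33. Whether the endothelial signal accounts for any of the absolute changes was not tested.

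**Figure D4:**
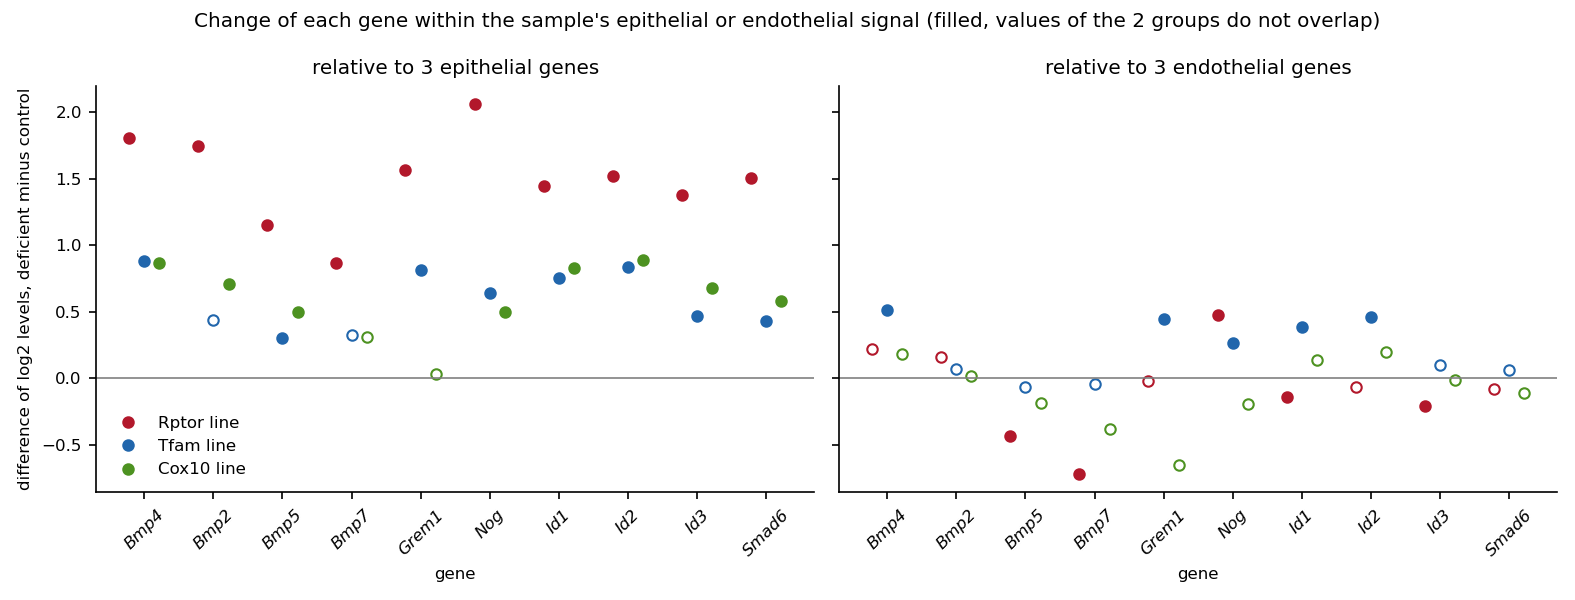
Difference of log2 levels, deficient minus control, for the 10 genes after the mean log2 level of 3 epithelial genes (left) or 3 endothelial genes (right) was subtracted in each sample. Filled points mark genes whose deficient and control values do not overlap. All 10 genes lie above 0 in each line on the left, by a median of 1.51 in the Rptor line, where the median of all genes is 1.18. On the right the lowest and highest values are -0.72 and 0.47 for Rptor, -0.065 and 0.51 for Tfam, and -0.66 and 0.20 for Cox10.

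Other genes of the BMP pathway were examined through a list of 58, of which 57 were in the tables and 51 to 52 were tested in a line. Among Rptor lungs 17 of 51 rose and 4 fell, with a median log2 fold change of 0.13. Of 52 genes tested in Tfam lungs 1 rose and 2 fell (median -0.052), and in Cox10 lungs 1 of 52 rose and 0 fell (median -0.013). The shares of all genes that rose or fell were those given above. Within the Rptor line 21 of 51 passed in either direction, where 5202 of all 14940 genes tested did. By role these were 9 of 17 extracellular modulators, 5 of 7 other ligands and 2 of 4 signal transducers. The rest were 2 of 7 inhibitors of the response, 2 of 6 response genes and 1 of 10 receptors and co-receptors. For inhibitors, response genes and receptors the share that passed was below that of all genes.

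Among the antagonists, Cer1 (Cerberus) showed the largest change. It had 45.2 ± 6.68 normalised reads in Rptor controls and 7.30 ± 1.97 in deficient lungs, 51.1 ± 8.18 and 11.6 ± 5.86 in the Tfam line, and 71.0 ± 4.43 and 14.0 ± 8.88 in Cox10 lungs (SD, n = 3 each). Deficient lungs lay below the controls without overlap in all 3 lines. Cer1 fell by log2 fold changes of -2.50 (adjusted p = 0.000546 by limma) and -2.18 (adjusted p = 0.00710 by limma) in the Rptor and Tfam lines, while -2.43 in the Cox10 line did not pass (adjusted p = 0.0553 by limma). In the Cox10 line Cer1 passed without deficient replicate 1 (adjusted p = 0.0133 by limma) or 3 (-2.05, adjusted p = 0.0216 by limma), with a pseudocount of 5 (0.0411) and with all 18 samples in 1 fit (0.00203), as well as in DESeq2 (adjusted p = 2.98e-05), but in none of the other 4 fits that left out a sample (up to 0.347) nor in edgeR (0.0544). Chrdl1 (Chordin-like 1) fell in Rptor lungs by a log2 fold change of -1.45, and Sostdc1, a secreted antagonist known for its part in tooth patterning, rose by 1.52. Bmper, which encodes an extracellular BMP-binding modulator, rose by 1.07 in the Rptor line and by 0.44 in Tfam lungs (adjusted p = 0.0461 by limma), the latter lost in all 6 fits that left out a sample (adjusted p = 0.0508 to 0.155 by limma) and without a filter on low values (adjusted p = 0.0665 by limma). Tll1, a protease that cleaves the antagonist Chordin, rose by 0.59 in the Rptor line, a call that held in 5 of the 6 fits without a sample.

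Bambi and Smad7 were the 2 of 7 other inhibitors of the response that rose in the Rptor line. Bambi, a pseudoreceptor without a kinase, rose in Rptor lungs by a log2 fold change of 0.37 and in the Cox10 line by 0.30, where it was the 1 pathway gene that passed (adjusted p = 0.0456 by limma). That call held in 1 of the 6 fits without a sample, the one without deficient replicate 3 (adjusted p = 0.0185 to 0.324 by limma over the 6), and was lost without the filter (adjusted p = 0.0530 by limma). Smad7, the other inhibitory SMAD, rose in Rptor lungs by 0.47 and passed in 4 of the 6 fits without a sample. Of the transducers Smad9 rose by 0.58 and Smad1 by 0.23 in the Rptor line, and Smad9 was 0.36 in Cox10 lungs, which did not pass (adjusted p = 0.0615 by limma). The Smad1 call held in 2 of the 6 fits without a sample and that of Smad9 in the Rptor line in all 6. In Cox10 lungs Smad9 passed without deficient replicate 3 (0.33, adjusted p = 0.0387 by limma), with all 18 samples in 1 fit (0.0342) and in DESeq2 (adjusted p = 0.00409), but not in the other 5 fits without a sample (up to 0.365) nor in edgeR (0.0731). Among the response genes Atoh8 rose by 0.65 and Msx2, a homeobox target, fell by 1.10 on the log2 scale in the Rptor line. Id4, Hey1, Dlx3 and Tbx20, the others tested in that line, did not pass. The Msx2 call was lost in 4 of the 6 fits, those without control replicate 1 or 3 or deficient replicate 1 or 2 (adjusted p = 0.0534 to 0.101 by limma). For Tfam the Msx2 values were 77.2, 118 and 74.0 normalised reads in controls and 48.6, 57.6 and 43.0 in deficient lungs. These did not overlap, and the log2 fold change of -0.82 did not pass (adjusted p = 0.0518 by limma). It passed without control replicate 3 (adjusted p = 0.0383 by limma), with the replicate block (0.0329) and in DESeq2 (adjusted p = 0.0322), but not with all 18 samples in 1 fit (0.202). Acvrl1, a type I receptor of endothelial cells, was the 1 receptor that passed, with a rise of 0.51 in Rptor lungs, where endothelial markers rose as well.

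Among the other ligands of the Rptor line, Gdf10 went up from 235 ± 76.6 to 744 ± 80.3 normalised reads (mean ± SD of 3), which is 1.70 on the log2 scale. Gdf5 (1.36), Bmp6 (0.84) and Bmp3 (0.45) rose as well and Gdf11 fell by 0.41 on the log2 scale. When 1 sample was left out the calls of Gdf10 and Gdf11 held in all 6 fits, that of Bmp6 in 3 and those of Gdf5 and Bmp3 in 2 each (adjusted p of at most 0.0785, 0.103 and 0.0995 by limma). Bmp3, a BMP known to oppose the osteogenic members, fell in the Tfam line with a log2 fold change of -0.44 (adjusted p = 0.0364 by limma). It held in 1 of the 6 fits without a sample, that without deficient replicate 2 (adjusted p = 0.0108 to 0.144 by limma). With all 18 samples in 1 fit neither Bmp3 change passed (adjusted p = 0.0765 and 0.292 by limma).

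**Figure D5:**
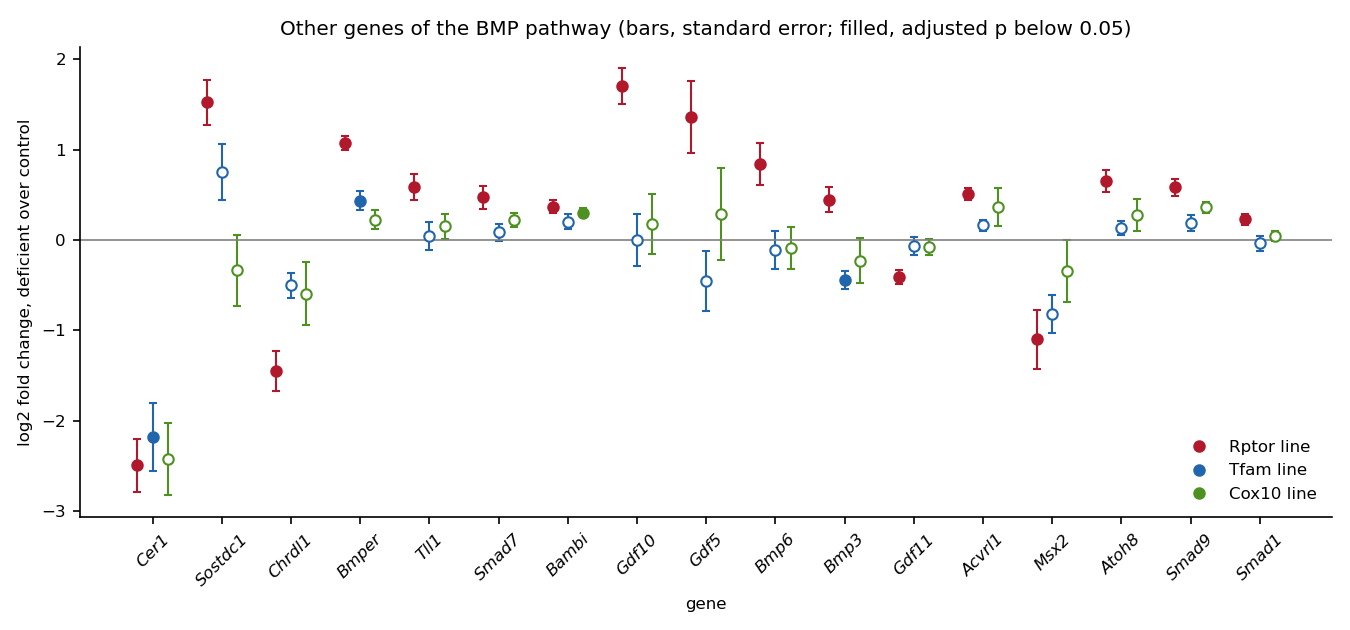
Log2 fold change of deficient over control lungs for 17 other genes of the BMP pathway that passed in at least 1 line, at most 5 per role. Bars are standard errors and filled points have a limma adjusted p below 0.05. Cer1 lies between -2.50 and -2.18 in the 3 lines, while Gdf10 (1.70) and Sostdc1 (1.52) are high in Rptor lungs.

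Bmp4, Id1 and Id2, the genes that passed in 2 lines, were compared with all genes tested in the 3 lines for likeness of pattern over the 18 samples. Likeness was the root mean square difference of log2 levels, each set against the mean of its line's controls. The genes closest to Bmp4 were Cited2 (0.11), Spry2 (0.12) and Epha2 (0.12). Spry2 encodes an inhibitor of receptor tyrosine kinase signalling, and its log2 fold changes for Rptor, Tfam and Cox10 were 0.51, 0.53 and 0.41. The gene closest to Id2 was Id1, and the gene closest to Id1 was Id2, at a distance of 0.10. Adamts9 (0.11) and C77080 (0.11) followed for Id2, and Calml4 (0.12) and Thnsl2 (0.14) for Id1. These are descriptions of likeness over samples that share their libraries.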

How the data were processed

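Bulk RNA-Seq of whole embryonic lungs at 14.5 dpc gave 18 samples in 6 groups of 3. Per the submitters' processing notes, Trim Galore, HISAT2, featureCounts and DESeq2 were used with mm10. The methods give an R version for the differential expression step. Versions of the tools named here, gene annotation and strand setting are not given in the sources used here. The methods name TRIzol, a column kit and a BGISEQ-500 sequencer, and the labels an Illumina library protocol. The authors deposited a normalised signal per gene and sample, that is reads divided by a size factor. In every sample 100% of values were whole multiples of 1 step of 0.978 to 1.02 (tolerance 0.001), so that whole read counts were recovered. Deposited columns of fold changes and p-values were not used.

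Genes that reached a value of 10 in 3 or more of the 6 samples of a line were tested by limma 3.58.1 (R 4.3.3; lmFit, eBayes with trend) on log2(value + 1), two-sided, with Benjamini-Hochberg adjustment over all genes of the line and a threshold of 0.05. Fold changes are on this scale and understate changes of low genes. Differences between lines and the mean effect came from 1 fit of 18 samples in 6 groups. The mean effect was added after seeing the data. Replicates had correlations of 0.991 to 0.995, and their counts differed by 3.95 to 30.1 chi-square per gene, where sampling noise gives about 1. In the Rptor line same-numbered samples deviated together (r = 0.221, 0.330 and 0.259), a pairing that comes from the data and not from the labels. Relative levels were tested by exact permutation (scipy 1.17.1). Gene positions and exonic lengths are from GENCODE M21 on GRCm38, the build called mm10. The fits were tested on simulated data.

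The members and lists were chosen with earlier results of these data known. Named genes are the 10 members, the targeted genes, pathway genes past the threshold in at least 1 line (at most 5 per role, by the size of the change) and the 3 nearest genes in likeness of members that passed in 2 lines. Response genes given as passing in no line are from each line's own fit and are not counted as named genes. Alternatives were other scalings (library totals, TMM), filters and pseudocounts (0.1 and 5), the replicate block, all 18 samples in 1 fit, edgeR 4.0.16 and DESeq2 1.42.0 on the recovered counts, 12 marker genes as reference, and leaving out each sample.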

Additional observations from a re-analysis of the deposited data

Results flagged for a closer look

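The effect of the deletion on Nog differed between the Rptor and Cox10 lines by 0.79 on the log2 scale (SE 0.20, limma adjusted p = 0.0214), with a rise in 3 of 3 Rptor-deficient lungs above all their controls (133.9 ± 4.41 against 252.0 ± 50.8 normalised reads, SD, n = 3 each) and overlapping values in the Cox10 line (162.7 ± 21.1 against 174.2 ± 19.1). The 95% interval reached 0.42 to either side. The difference passed for 1 of the 10 genes in this pair of lines, near the share of 7.48% of all genes. It was lost in 4 of the fits that left out a sample (adjusted p = 0.0506 to 0.0680 by limma). In the Rptor line deficient and control values did not overlap for 50.3% of all genes. None of the 10 passed for Rptor against Tfam, where 11.2% of all genes did.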

How the results depend on the processing

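With all samples kept, 558 values of a gene in a line under an alternative stayed on their side of the threshold, 14 passed where they had not and 10 no longer passed, and no direction turned. In the Cox10 line, 2 of the 10 BMP genes passed with all 18 samples in 1 fit and 3 in DESeq2, against 0 in the line's own limma fit. Among all genes 327 of 14550 passed with all 18 samples in 1 fit, 325 in DESeq2 and 71 of 14937 in the line's own fit. Of the other pathway genes in that line, 1 passed, and 0 without a filter on low values or with the replicate block, 2 with a pseudocount of 5 and 4 with all 18 samples in 1 fit or in DESeq2. In the Tfam line 1 of them passed in place of 3 without the filter. When 1 sample was left out, 3 to 7 BMP genes passed in the Rptor line (3 without control replicate 1, and 4 without control replicate 3, deficient replicate 1 or deficient replicate 3), 0 to 1 in the Cox10 line (1 without deficient replicate 1 or 3), and 12 to 20 other pathway genes in the Rptor line (12 without control replicate 1), 1 to 3 in the Tfam line and 0 to 4 in the Cox10 line (4 without deficient replicate 3). The differences between Rptor and Tfam effects gave 0 to 1 gene (1 without Rptor deficient replicate 2 or 3), and those between Rptor and Cox10 effects 0 to 1. The sign of Bmp5 turned, with log2 fold changes of -0.10 to 0.062 in the Rptor line, -0.048 to 0.12 in the Tfam line, -0.040 to 0.217 in the Cox10 line and -0.0093 to 0.076 for the mean effect, and so did that of Bmp7 in the Tfam line (-0.0084 to 0.11). The cause was not tested.

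In the Rptor line all same-numbered samples deviated together, and with the block 5768 genes passed in place of 5202 and Id3 passed (limma adjusted p = 0.0426). In the Tfam and Cox10 lines the correlations were -0.312 to 0.151 and 0.0488 to 0.447, and 2 and 3 of 6 samples were closest to their own number. Whether some samples of the Cox10 line were paired is not settled by these values. There 802 genes passed in place of 702 and 48 in place of 71, Bmper (limma adjusted p = 0.0730) and Bambi (0.0650) no longer passed, and Msx2 did in the Tfam line (0.0329). The block changed no other call of a named gene. Grem1 had the fewest reads of the 10 genes, with control means of 11.96 to 61.7 normalised reads.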
